A study of Mus musculus with 40 samples.

Results

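The 10 factors described here are the mRNAs of Pabpc1, Pabpc4, Pabpn1, Papola, Papolg, Cpsf1, Cpsf2, Cpsf6, Cstf2 and Nudt21, which make the poly(A) tail of an mRNA or bind it. They were chosen by gene symbol, and all 10 were found among the 27179 genes of the expression table. The samples were bone marrow-derived macrophages (BMDMs, macrophages grown in culture from bone marrow) of 4 wildtype (WT) and 4 Cpeb4-/- (KO) male mice, which lack the cytoplasmic polyadenylation factor CPEB4 in all tissues and have a mixed C57BL/6J and 129 background. Cells of each mouse were left untreated or given 10 ng/ml lipopolysaccharide (LPS), a bacterial cell wall component, for 1, 3, 6 or 9 h, which gave 40 poly(A)-selected RNA-seq libraries with 4 mice per genotype and time. Each of 2 batches held 2 mice of each genotype, and no cage held both genotypes, so cage and genotype cannot be told apart. Values are rlog values, a log2 scale corrected for library size on which differences of weakly expressed genes are shrunken, and a difference of 1 is a doubling where there is no shrinkage.

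Most mRNAs receive their poly(A) tail in the nucleus. There the cleavage and polyadenylation specificity factor (CPSF) binds the poly(A) signal, the cleavage stimulation factor (CstF) binds the GU-rich sequence downstream of the cut, cleavage factor I (CFIm) binds UGUA elements upstream, and a poly(A) polymerase adds the tail to the cut end. Nuclear poly(A)-binding protein sets the length of the tail, and cytoplasmic poly(A)-binding proteins then link it to translation and to decay. CPEB4 is an RNA-binding protein of the cytoplasm that recognises the cytoplasmic polyadenylation element, searched here only as TTTTAT or TTTTAAT (letters of DNA). The study also counted other forms, among them TTTTGT, over the whole of the longest 3′ end of a gene. ATTTA (AU-rich) elements mark mRNAs for decay.

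The poly(A) signals of the factors themselves are shown because the signal is the sequence that the CPSF complex reads. For each gene the principal protein-coding transcript with the longest annotated 3′ end was taken from GENCODE M21 (GRCm38, the build that mm10 also names), and the signal AATAAA or ATTAAA was searched in its last 50 bases, where 79.4% of 10537 transcripts of tested genes held 1. In 5 factors the AATAAA signal is printed in capitals with up to 12 bases on each side.
Cstf2 (chrX:134086791-134086819, + strand): tgtcgtggattcAATAAAtattttaaaag
Cpsf2 (chr12:102006396-102006424, + strand): atttcgctaataAATAAAagatgctgagc
Cpsf6 (chr10:117344673-117344702, - strand): tcttgtattgaaAATAAAaacaaagttttg
Nudt21 (chr8:94015500-94015529, - strand): cactgttatttcAATAAAaatatttaaaac
Pabpc4 (chr4:123298794-123298823, + strand): tcaaataaaggaAATAAAatctccataaat
The signals end 11 bases before the annotated end in Cstf2 and Cpsf2, 12 in Cpsf6, 16 in Nudt21 and 21 in Pabpc4. Pabpc4 and Cpsf2 each held 2 AATAAA, of which the later is in capitals. Pabpc1 also held a signal, 15 bases before its annotated end, which is not printed. Papola, Papolg, Pabpn1 and Cpsf1 held none in their last 50 bases. In the last 200 bases, Nudt21 held 2 matches to TTTTAT or TTTTAAT, Cpsf6 held 1 and Pabpc1 held 1, and no other factor held any. Of all 10537 transcripts, 29.6% held at least 1 of these elements in that window. Other forms of the element, and bases before the window, were not searched. The window held 2 ATTTA matches in Cpsf6 and in Nudt21 and 1 in Cstf2, Papola and Pabpc1, and 35.2% of all transcripts held at least 1. The windows of Pabpn1 and Cpsf1 had only 113 and 79 bases, the whole of their annotated 3′ ends. A match is a string of letters and no evidence of binding.

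All 10 factors passed the filter on low values, a floor of log2 of 5 on the mean rlog of a gene, in every fit. Per length, as the mean rlog of untreated WT minus log2 of the exon length in kb, Pabpc1 was highest at 12.4, followed by Pabpn1 at 11.1, Papola at 9.35, Cpsf1 at 9.01, Cpsf2 at 8.48, Cpsf6 at 7.97, Cstf2 at 7.59, Pabpc4 at 6.75, Papolg at 5.42 and Nudt21 at 3.48. Neighbours in this order lay farther apart than the SD between mice, but the exon lengths are those of GENCODE and not of the annotation that was counted. Nudt21 (chr8:94015496-94037031, - strand) encodes the small subunit of CFIm and Cpsf6 a large subunit of the same complex, and Nudt21 had the lowest level per length of the 10 factors. The exons of Nudt21 overlap no other GENCODE gene, and the cause of its low value was not tested. All 9 macrophage markers passed the filter, and Lyz2 lay between 17.7 and 18.9 and Csf1r between 15.1 and 15.9. Their summed level (2 to the power of rlog) was lower in KO than in WT without overlap at all 5 times, for example 508484 to 583359 against 613970 to 642642 at 9 h. Of other cell types, 2 of 6 neutrophil, 3 of 5 dendritic cell and 1 of 4 T cell markers passed the filter, with Camp up to 5.00, Xcr1 up to 7.06 and Lck up to 8.51, while Ly6g stayed below 0. Of the fibroblast and of the erythroid markers, 1 of 4 each passed. At 9 h the summed fibroblast level was 21.4 to 50.1 in KO and 17.8 to 22.0 in WT, which overlap. The part of these markers in the results was not tested. In such bulk samples, fewer cells of a type and less RNA per cell cannot be told apart.

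Cstf2 encodes the RNA-binding subunit of CstF, the part that contacts the RNA downstream of the cut, and it was the factor that changed most after LPS. It lies on the X chromosome (chrX:134059187-134086819, + strand). In untreated WT cells its rlog values were 10.14, 10.24, 9.97 and 10.09 in mice 25, 69, 87 and 88. At 3 h they were 11.24, 11.17, 11.20 and 11.32, and at 6 h 11.73, 11.53, 11.72 and 11.74. No value at 3 or 6 h overlapped the untreated values, and mouse 69 was lowest at both times. At 9 h the WT values were 10.92, 10.76, 10.92 and 10.86, between the untreated and the 6 h levels. In WT the difference from untreated was 0.25 at 1 h (SE 0.0726, limma adjusted p = 0.0118), 1.13 at 3 h (adjusted p = 2.04e-11), 1.57 at 6 h (adjusted p = 4.32e-14), which is 2.98-fold on this scale, and 0.76 at 9 h (adjusted p = 9.53e-09). The call at 1 h was lost without mouse 25 (0.23, adjusted p = 0.0925) and under quantile normalization (0.18, adjusted p = 0.0531). In KO the difference was 0.35 at 1 h, 1.15 at 3 h, 1.42 at 6 h (SE 0.0581, adjusted p = 3.46e-15) and 0.39 at 9 h. From 6 to 9 h Cstf2 fell by 0.82 in WT and by 1.03 in KO (adjusted p = 1.17e-08 and 1.25e-11). The rise at 3, 6 and 9 h kept its direction and its call under quantile normalization, with 1.27 in WT and 1.17 in KO at 6 h.

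The exons of Cstf2 overlap those of Nox1 on the opposite strand over 399 bases, 6.98% of the exon length of Cstf2, and the strand setting of the counting is not given in the sources used here. Nox1, an NADPH oxidase, was read at 5.88 ± 0.14 (SD, n = 4) in untreated WT and at 9.62 ± 0.13 (SD, n = 4) after 6 h. Its rise of 3.74 (adjusted p = 8.59e-16) was larger than that of Cstf2, and over the 40 libraries the rlog values of the 2 genes had a Pearson r of 0.88. Mir3112 shares 82 bases with Cstf2 on the same strand, had a mean of 3.54 in WT at 6 h, above its untreated mean, and had an r of 0.70 with Cstf2. If reads were counted without strand, reads from the shared bases cannot be assigned to 1 of the 2 genes, and the part of Nox1 in the Cstf2 values was not tested.

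**Figure D1:**
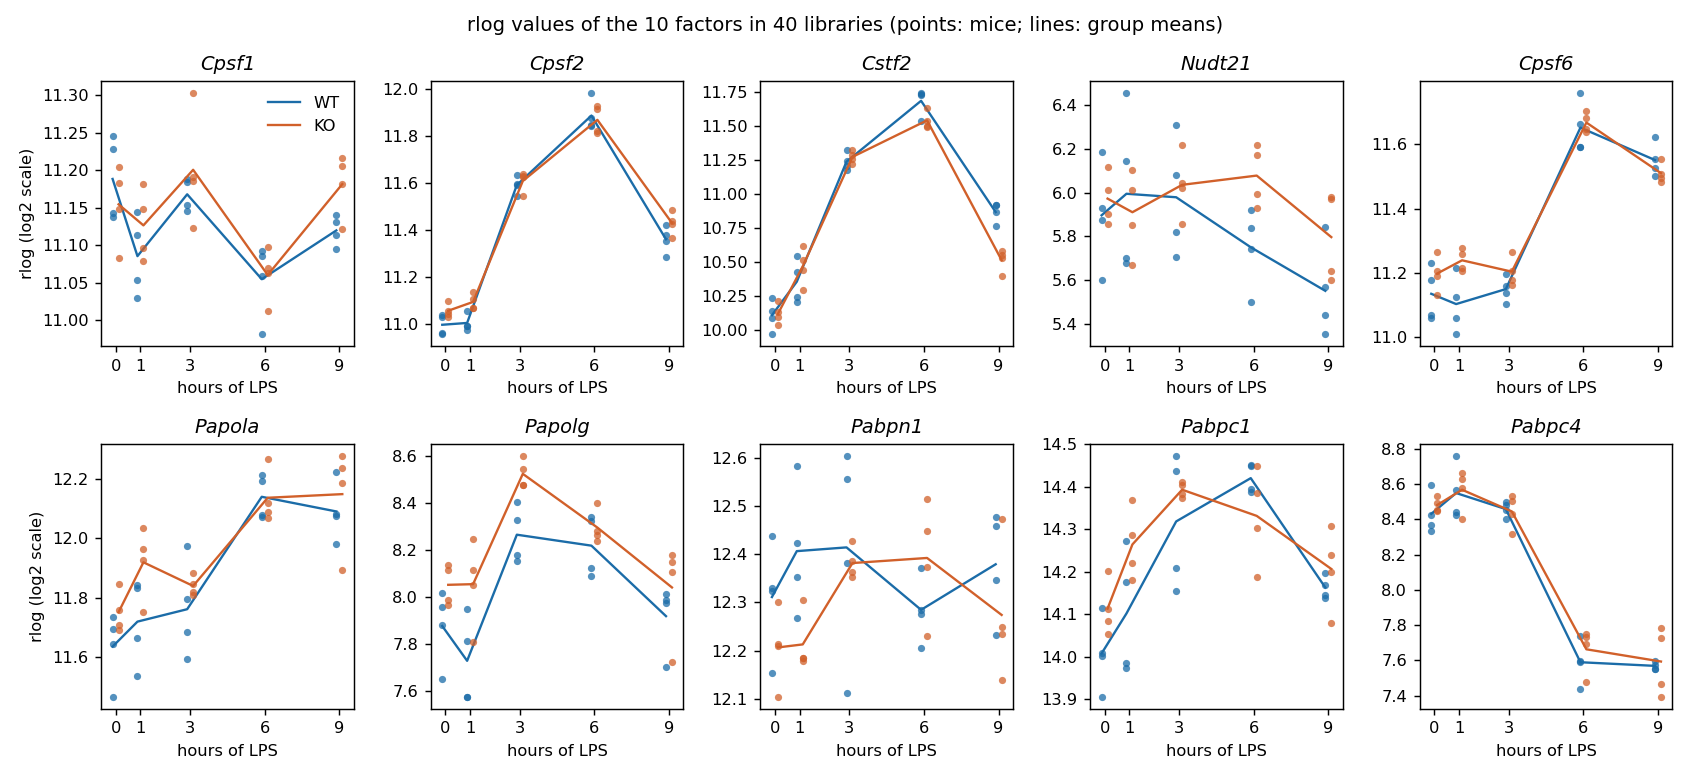
rlog value (log2 scale, separate axis for each gene) of the 10 factors against hours of LPS in WT (blue) and KO (orange) libraries. Points are mice and lines join the means of 4 mice. Cstf2 and Cpsf2 peak at 6 h, Pabpc4 falls between 3 and 6 h, and the Cstf2 points of the genotypes are apart at 9 h.

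Cpsf2, a subunit of CPSF, had the course most like that of Cstf2. In WT its values lay between 10.96 and 11.04 untreated and between 10.97 and 11.06 at 1 h, and its mean was 11.59 at 3 h, 11.89 at 6 h and 11.36 at 9 h. All 4 WT values at 6 h, between 11.84 and 11.98, lay above all untreated values. The difference from untreated was 0.59 at 3 h, 0.89 at 6 h (SE 0.0423, adjusted p = 6.97e-14) and 0.36 at 9 h in WT, and 0.55, 0.81 (SE 0.0375, adjusted p = 2.72e-14) and 0.37 in KO. At 1 h there was no call in either genotype (0.01 and 0.04), and this small difference was below 0 under quantile normalization, whereas the rises at 3, 6 and 9 h kept their direction and call. Cpsf2 fell from 6 to 9 h by 0.53 in WT and by 0.44 in KO. Over the 40 libraries the rlog values of Cpsf2 and Cstf2 had a Pearson r of 0.95, the highest among the 45 pairs of factors, as a description over libraries that share mice and times.

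The promoters of these 2 factors are shown because their mRNAs rose and fell together. Each runs from 250 bases before to 50 bases after the start of the RefSeq gene (GRCm38.p6), and capitals mark TGACG on either strand, a core part of the cAMP response element.
Cstf2 (chrX:134058926-134059225, + strand): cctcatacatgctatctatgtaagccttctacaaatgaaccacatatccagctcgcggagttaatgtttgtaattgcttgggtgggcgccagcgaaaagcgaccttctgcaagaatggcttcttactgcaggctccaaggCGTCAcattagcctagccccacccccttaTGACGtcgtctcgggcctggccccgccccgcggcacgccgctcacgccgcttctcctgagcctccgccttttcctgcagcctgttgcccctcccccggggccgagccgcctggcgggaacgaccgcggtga
Cpsf2 (chr12:101975724-101976023, + strand): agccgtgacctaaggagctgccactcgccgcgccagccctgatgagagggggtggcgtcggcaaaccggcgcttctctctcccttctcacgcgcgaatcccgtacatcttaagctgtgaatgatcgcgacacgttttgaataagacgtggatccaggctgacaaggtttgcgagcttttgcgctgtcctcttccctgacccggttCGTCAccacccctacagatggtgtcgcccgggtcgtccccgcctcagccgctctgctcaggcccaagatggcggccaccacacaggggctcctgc
The motif was chosen after the Cstf2 sequence was seen. It occurs 2 times in Cstf2 and 1 time in Cpsf2, and 6 of the 8 factors with a promoter in the table held it, against 20.8% of all 32851 promoters and 30.6% of the 12690 promoters of tested genes. Papola held it 3 times, Cpsf6 2 times, Nudt21 and Pabpn1 1 time each, and Papolg and Pabpc4 0 times. None of the 8 held the whole element TGACGTCA (1.79% of all promoters), the NF-kB motif (1.2%), the AP-1 motif TGANTCA (7.81%), the interferon-stimulated response element (3.44%) or the STAT motif TTCNNNGAA (8.3%), all searched on both strands. TGACG is part of TGACGTCA, and no match says only that these letters are not in this window.

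The other subunits of CPSF and CFIm moved less. Cpsf1, the largest subunit of CPSF, spanned only 0.15 between its highest and lowest group mean, a narrower span than in all but 0.176% of the 13103 tested genes. It fell by 0.13 in WT at 6 h (SE 0.0399, adjusted p = 0.00477) and by 0.09 in KO (adjusted p = 0.0425), and the KO call was lost without mouse 2, 3 or 62 (adjusted p = 0.103, 0.0879 and 0.158). With the mouse as a block, Cpsf1 was also called lower at 1 h in WT (adjusted p = 0.0313). Under quantile normalization the fall at 6 h was −0.50 in WT and −0.41 in KO, and the uncalled KO differences at 3 and 9 h turned from above to below 0. Cpsf6 stayed near its untreated level until 3 h and stood at 11.65 ± 0.079 (SD, n = 4) in WT at 6 h against 11.13 ± 0.084 untreated. This was a rise of 0.52 in WT (SE 0.0531, adjusted p = 1.85e-08) and of 0.47 in KO (adjusted p = 1.17e-10), and of 0.42 and 0.31 at 9 h. Under quantile normalization the rise of Cpsf6 at 6 h was 0.11 in WT (adjusted p = 0.0991) and 0.09 in KO (adjusted p = 0.0280), and at 3 h its difference turned to −0.25 in WT and −0.25 in KO. Nudt21 was not called against untreated at any time in either genotype. Its mean in WT was 5.90 ± 0.24 (SD, n = 4) untreated and 5.55 ± 0.21 at 9 h, a difference of −0.34 (adjusted p = 0.0817, and 0.0297 with the mouse as a block). Under quantile normalization Nudt21 was higher in KO at 6 h (0.45, adjusted p = 0.00164).

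The poly(A) polymerases were apart in level and in course. Papola encodes the canonical nuclear enzyme. Its mean in WT was 11.63 ± 0.12 (SD, n = 4) untreated, 11.76 at 3 h, 12.14 at 6 h and 12.09 at 9 h, so that it rose between 3 and 6 h and did not return by 9 h. The difference from untreated at 6 h was 0.50 in WT (SE 0.0823, adjusted p = 1.22e-05) and 0.39 in KO (adjusted p = 4.83e-05), but under quantile normalization it was −0.04 and −0.13, and at 3 h −0.25 and −0.29. Papolg (chr11:23862646-23895253, - strand) encodes a related nuclear polymerase and peaked earlier. It rose by 0.39 in WT (SE 0.101, adjusted p = 0.00211) and by 0.47 in KO (SE 0.0921, adjusted p = 1.15e-04) at 3 h, with all 4 values of each genotype above its untreated values, and by 0.34 and 0.24 at 6 h. At 9 h it was back at 7.92 in WT and 8.04 in KO, against 7.88 and 8.05 untreated. The 3 and 6 h rises kept their direction and call under quantile normalization (0.58 and 0.65 in WT), and the KO call at 6 h was lost without mouse 55 (0.18, adjusted p = 0.170) or mouse 62 (0.27, adjusted p = 0.0523).

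Among the poly(A)-binding proteins, Pabpc4 fell and Pabpc1 rose. Pabpc4 (chr4:123262351-123298925, + strand) encodes an inducible cytoplasmic poly(A)-binding protein. In WT its values were 8.34, 8.37, 8.59 and 8.43 untreated and 8.40, 8.50, 8.48 and 8.45 at 3 h in mice 25, 69, 87 and 88. At 6 h they were 7.60, 7.59, 7.74 and 7.44, and at 9 h 7.55, 7.55, 7.60 and 7.58. Every value at 6 and 9 h was below every earlier value, and the same held in KO. The difference from untreated was −0.84 in WT (SE 0.0762, adjusted p = 2.75e-09) and −0.82 in KO (SE 0.0846, adjusted p = 1.68e-08) at 6 h, and −0.86 and −0.89 at 9 h. Under quantile normalization the fall at 6 h was −0.55 in WT and −0.52 in KO, and it kept its call. Pabpc1, the main cytoplasmic poly(A)-binding protein, went from 14.01 ± 0.085 (SD, n = 4) untreated to 14.32 at 3 h and 14.42 at 6 h in WT. Its rise was 0.31 at 3 h and 0.41 at 6 h in WT (SE 0.0721, adjusted p = 7.37e-04 and 2.79e-05) and 0.28 and 0.22 in KO, but it turned to −0.30 and −0.50 in WT and to −0.30 and −0.61 in KO under quantile normalization, so its direction depends on the scaling. With the mouse as a block Pabpc1 was also called higher at 9 h in WT (0.16, adjusted p = 0.0315). Pabpn1 encodes the nuclear protein. It was not called in WT at any time, and in KO it was higher at 3 h by 0.18 (adjusted p = 0.0193) and at 6 h by 0.19 (adjusted p = 0.0122), calls that were lost without mouse 3 or mouse 62 (adjusted p = 0.0573 to 0.113) and that turned to −0.29 and −0.39 under quantile normalization. Pabpn1 shares 651 exon bases (27.5%) with Gm20521, a gene model on the same strand, so its reads could have been split, and its values are uncertain. Smaller overlaps with opposite-strand genes were found for Cpsf2 (147 bases), Papolg (91 bases) and Cpsf1 (11 bases).

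Counted over the factors, WT cells had 1 higher and 0 lower factor at 1 h, 4 and 0 at 3 h, 6 and 2 at 6 h, and 4 and 1 at 9 h, where 33.9%, 67.8%, 77.9% and 71.5% of all tested genes were called. Of all tested genes in WT, 17.3% were higher and 16.6% lower at 1 h, 32.5% and 35.3% at 3 h, 38.7% and 39.2% at 6 h, and 35.9% and 35.6% at 9 h. KO cells had 2 and 0, 5 and 0, 7 and 2, and 4 and 1, where 43.8%, 71.3%, 79.1% and 72.8% of tested genes were called. In KO 23.8% of all tested genes were higher and 20% lower at 1 h, 34.4% and 36.9% at 3 h, 39% and 40.1% at 6 h, and 36.4% and 36.4% at 9 h. The share of factors called was below that of all genes at 1, 3 and 9 h and close to it at 6 h. At 6 h the values of 8 factors in WT and 6 in KO did not overlap their untreated values. The share of all tested genes without such overlap between times was not computed. The median difference of the factors at 6 h was 0.38 in WT and 0.23 in KO, and that of all tested genes was −0.02 in both. Under quantile normalization the split of higher to lower factors at 6 h was 3 to 4 in WT and 5 to 4 in KO, and at 3 h it was 3 to 5 in both. The shares of all tested genes given here are those without this normalization. From 6 to 9 h, 0 factors were called higher and 4 lower in WT, and 1 higher and 5 lower in KO, where 51.4% (23.5% higher and 27.9% lower) and 53.6% (25.6% and 28%) of tested genes were called. From 1 to 3 h, 4 factors were higher and 0 lower in each genotype, where 60.1% of tested genes were called in WT (28% higher and 32.1% lower) and 64% in KO (30.5% and 33.5%). From 3 to 6 h, 4 factors were higher and 2 lower in WT and 4 higher and 3 lower in KO, where 63.7% (33.3% and 30.4%) and 64.4% (32.4% and 32.1%) of tested genes were called.

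Change after LPS differed with the level of a gene. At 6 h in WT the median difference was 0.69 over the 479 genes with a mean rlog from 13 to 15. It was −0.43 over the 2100 genes from 6 to 8. Both ends of the range were closer to no change, with 0.42 over the 76 genes above 15 and −0.27 over the 2883 at or below 6. Each factor was therefore set beside the tested genes whose mean rlog lay within 0.5 of its own, as a description. This level was the mean over the 20 libraries of the genotype, those at 6 h included, so it already holds part of the change. Cstf2 at 1.57 lay above 93.6% of 1774 such genes in WT, whose median was 0.23, and Cpsf2 at 0.89 above 79.0% of 1415, whose median was 0.33. Papolg at 0.34 lay above 81.8% of 1332 genes, whose median was −0.31, although its own change was small. Pabpc4 at −0.84 lay above only 24.4% of 1374 genes, with a median of −0.25. Pabpc1 at 0.41 was below the median of 0.64 of its 185 genes, Papola at 0.50 was near the median of 0.39, and Cpsf6 at 0.52 was somewhat above 0.32. Cpsf1 and Pabpn1 had medians of 0.29 and 0.46. At 6 h, 3 of 10 factors lay above the upper quartile of genes of like level in each genotype, Cstf2, Cpsf2 and Papolg in both. Below the lower quartile lay 3 in WT (Cpsf1, Pabpn1 and Pabpc4) and 1 in KO (Pabpc4). Such counts are close to what a quartile gives by definition.

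**Figure D2:**
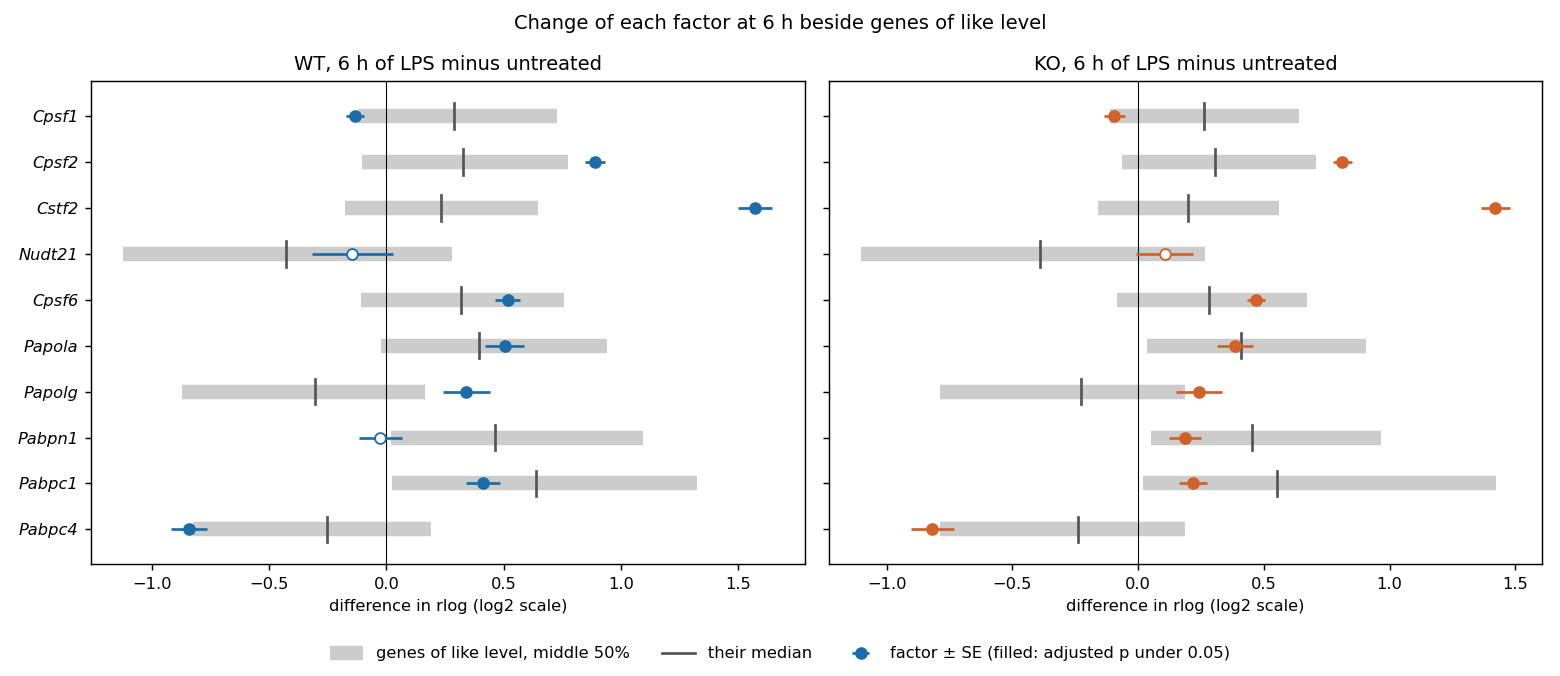
Difference in rlog between 6 h of LPS and untreated (x axis, log2 scale) for each factor in WT (left) and KO (right), as point ± SE, filled where the limma adjusted p is under 0.05. Grey bars span the lower to the upper quartile of tested genes of like level and dark lines their median. Cstf2, Cpsf2 and Papolg lie to the right of the bars, while the rises of Pabpc1 and Papola in both genotypes and of Pabpn1 in KO fall within them and turn below 0 under quantile normalization.

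Whether loss of Cpeb4 changed the mRNAs of these factors was tested at each time with 4 KO against 4 WT mice. Of the 10 factors, 0 were called in untreated cells, 0 at 1 h, 0 at 3 h, 0 at 6 h and 1 at 9 h, where limma called 1.31%, 1.91%, 3.68%, 16.3% and 7.91% of tested genes. These shares moved with single mice: without 1 mouse the number of genes called went from 171 to between 44 and 163 untreated, from 251 to between 40 and 2440 at 1 h, from 481 to between 76 and 2584 at 3 h, from 2129 to between 1347 and 2331 at 6 h, and from 1029 to between 387 and 4575 at 9 h. At an unadjusted p under 0.05 the numbers of factors were 0, 4, 1, 2 and 1, and limma was the only tool run. The fit of all 40 libraries together called 2 factors at 1 h (Papolg and Cpsf6, both higher in KO), and 4 with the mouse as a random effect (also Pabpc1 and Papola). The shares of tested genes above are those of the separate fits at each time. Those of the joint fits are not given here, so these counts have no background beside them. Cpeb4 itself differed at 6 h (−1.27, adjusted p = 0.00114) and was not called at the other times, where its KO and WT values overlapped. Whether its reads come from the deleted part of the gene was not tested, and libraries are named by their labels.

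The factor called at 9 h was Cstf2. Its KO values at 9 h were 10.40, 10.55, 10.58 and 10.53 in mice 2, 3, 55 and 62, and its WT values were 10.92, 10.76, 10.92 and 10.86. Every KO value was below every WT value, and groups that did not overlap, in either direction, made up 16.9% of all tested genes at that time. The difference was −0.35 (SE 0.0577, 3.22% of tested genes called lower, limma adjusted p = 0.00690; exact permutation p = 0.0286, two-sided, which 4 against 4 mice cannot go below), and it was −0.35 in each batch. It was called under all 13 alternatives, with an adjusted p between 2.50e-04 and 0.0341. Before 9 h the genotypes were closer: the difference was 0.01 untreated, 0.11 at 1 h, 0.04 at 3 h and −0.14 at 6 h (adjusted p = 0.946, 0.376, 0.683 and 0.0869). At 6 h, WT mouse 69 at 11.53 lay within the KO values, and without it the difference was −0.19 (adjusted p = 0.0201). Without KO mouse 55 it was −0.17 (adjusted p = 0.0426). Nox1, which shares bases with Cstf2, had a KO minus WT difference of −0.38 at 9 h (adjusted p = 0.169) and of −0.31 at 6 h (adjusted p = 0.0594), both not called, and its part in the Cstf2 difference was not tested. The summed macrophage markers were also lower in KO at 9 h, and their part was not tested.

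The change from untreated to 9 h was 0.39 in KO and 0.76 in WT for Cstf2, and this difference between genotypes of −0.36 (SE 0.0944) was called in the interaction test (adjusted p = 0.0353; 1.76% of tested genes were called, 0.771% with a lower change in KO). This test held no term for the mouse, and with the mouse as a block the adjusted p was 0.0110. But the call depended on the number of mice. Without any 1 mouse other than WT mouse 69 the difference was −0.39 to −0.30 and was not called (adjusted p = 0.0616 to 0.150). At 1, 3 and 6 h, 0 factors were called for interaction, where 0.00763%, 0.206% and 2.94% of tested genes were, and 0, 0 and 1 factor had an unadjusted p under 0.05.

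**Figure D3:**
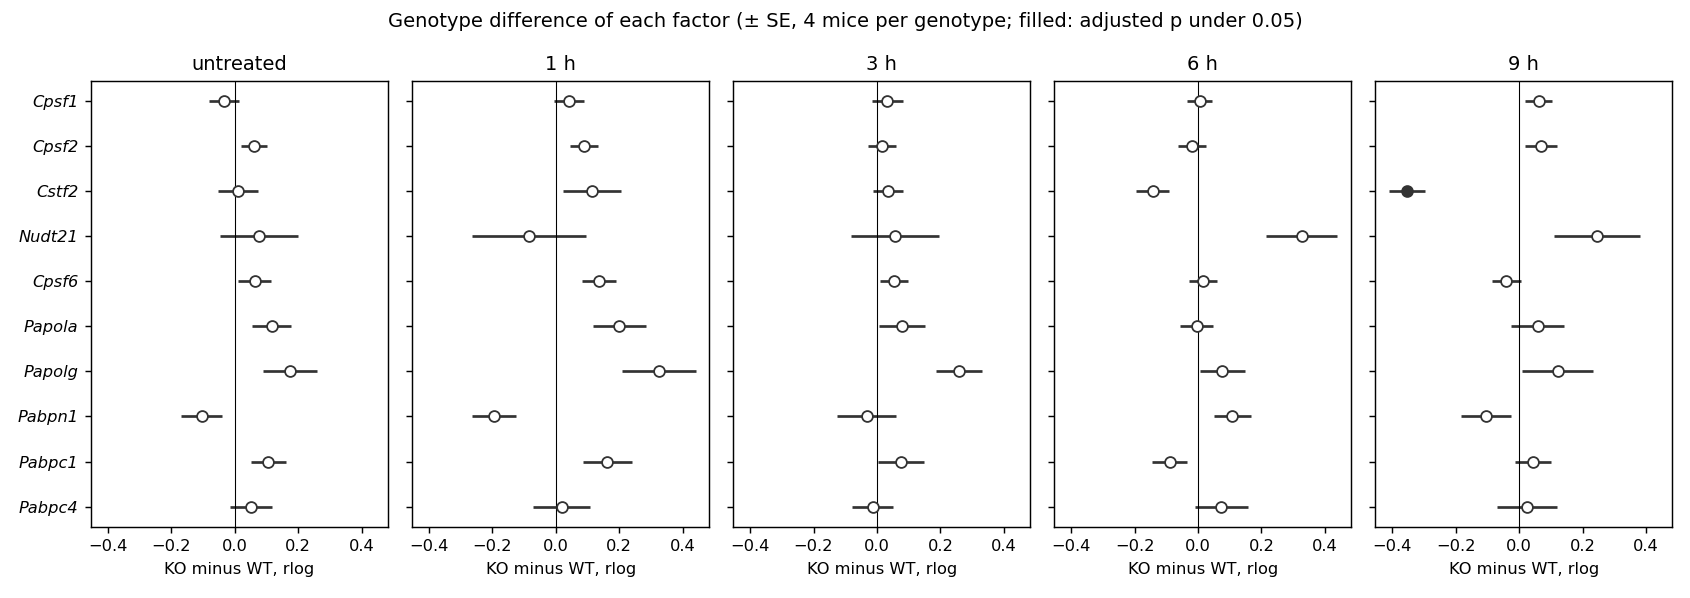
KO minus WT difference in rlog (x axis, log2 scale) of each factor, in 5 panels from untreated to 9 h, as point ± SE over 4 mice per genotype. Filled points have a limma adjusted p under 0.05, and the only one is Cstf2 at 9 h, at −0.35.

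Other differences between genotypes did not pass the test. Nudt21 at 6 h was 6.22, 5.93, 5.99 and 6.17 in KO and 5.50, 5.92, 5.74 and 5.84 in WT, which do not overlap, a difference of 0.33 (SE 0.113, adjusted p = 0.0682; 0.38 in batch 1 and 0.28 in batch 2). Papolg at 3 h was 8.47, 8.60, 8.47 and 8.54 in KO and 8.18, 8.33, 8.15 and 8.40 in WT. These too do not overlap, with a difference of 0.26 (SE 0.0720, adjusted p = 0.0740; 0.28 and 0.24 in the batches), and the difference was called without WT mouse 88 (0.30, adjusted p = 0.0180). Cpsf2 at 1 h did not overlap either, at 0.09 (adjusted p = 0.168). Groups that do not overlap made up 20.2% of tested genes at 6 h, 13.6% at 3 h and 15.7% at 1 h. At 1 h Pabpn1 was −0.19 (adjusted p = 0.101) and Papolg 0.33, both not called, and both were called without WT mouse 69 (adjusted p = 0.0445 and 0.0454). Pabpn1 was also called at 6 h without KO mouse 55 (0.16, adjusted p = 0.0420) and at 9 h without KO mouse 2 (−0.17, adjusted p = 0.0469), in opposite directions.

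A wider list of 47 genes of nuclear cleavage, tail addition and tail binding was matched in the table in full, and 39 passed the filter in each genotype. At 6 h, 28 were higher and 4 lower in WT and 27 higher and 6 lower in KO, with medians of 0.42 and 0.36, and under quantile normalization 19 higher and 9 lower in WT and 18 and 10 in KO. The other 2 tested poly(A)-binding proteins, Pabpc1l and Zc3h14, were called in neither genotype at 3 or 6 h. Of the 9 other polymerases, 7 were higher and 0 lower in WT at 6 h and 7 higher and 1 lower in KO. Of the 10 partners of poly(A)-binding proteins, 8 were higher and 2 lower in each genotype. Among all tested genes, 38.7% were higher and 39.2% lower in WT and 39% and 40.1% in KO, without quantile normalization. The shares with it are not given here. Of the other 3 CstF genes, 2 were called higher in WT at 6 h, Cstf3 by 0.19 and Cstf2t, the paralogue of Cstf2, by 0.16, and Cstf1 was at −0.09 and not called. In KO at 6 h Cstf3 was higher (0.21), Cstf1 lower (−0.17) and Cstf2t at 0.04 and not called. In WT all 3 differences are smaller than the 1.57 of Cstf2.

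The largest rises on this list in WT were those of Tent4a, Tent5c and Eif4g2. Tent4a, a noncanonical poly(A) polymerase that makes mixed tails, went from 10.22 to 12.35 at 3 h, a rise of 2.13 in WT and 2.11 in KO. Tent5c, another noncanonical poly(A) polymerase, rose by 1.53 at 1 h, was at 5.88 at 3 h against 5.99 untreated, and was 2.10 above untreated at 6 h in WT. Eif4g2, a translation initiation factor related to eIF4G, rose by 1.85 in WT and 1.62 in KO at 6 h. In KO the 3 largest rises were those of Tent4a, Larp1 (1.72 at 6 h) and Eif4g2, and Larp1 is an RNA-binding protein that binds poly(A)-binding protein. The largest falls in both genotypes were those of Paip2b, an inhibitor of poly(A)-binding protein (−1.22 in WT and −1.24 in KO at 6 h), Tut4, a terminal uridylyl transferase (−0.70 and −0.61 at 9 h), and Tent5a, a relative of Tent5c (−0.60 and −0.60 at 1 h), which was above untreated at 3 h (1.06 and 1.01). These rises and falls kept their direction under quantile normalization, but Eif4g2 at 6 h was then 1.11 in WT and 0.91 in KO, Larp1 0.93 in KO, and Tent5a at 3 h 0.64 in WT and 0.63 in KO. The uncalled WT difference of Tent5c at 3 h turned to 0.08.

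**Figure D4:**
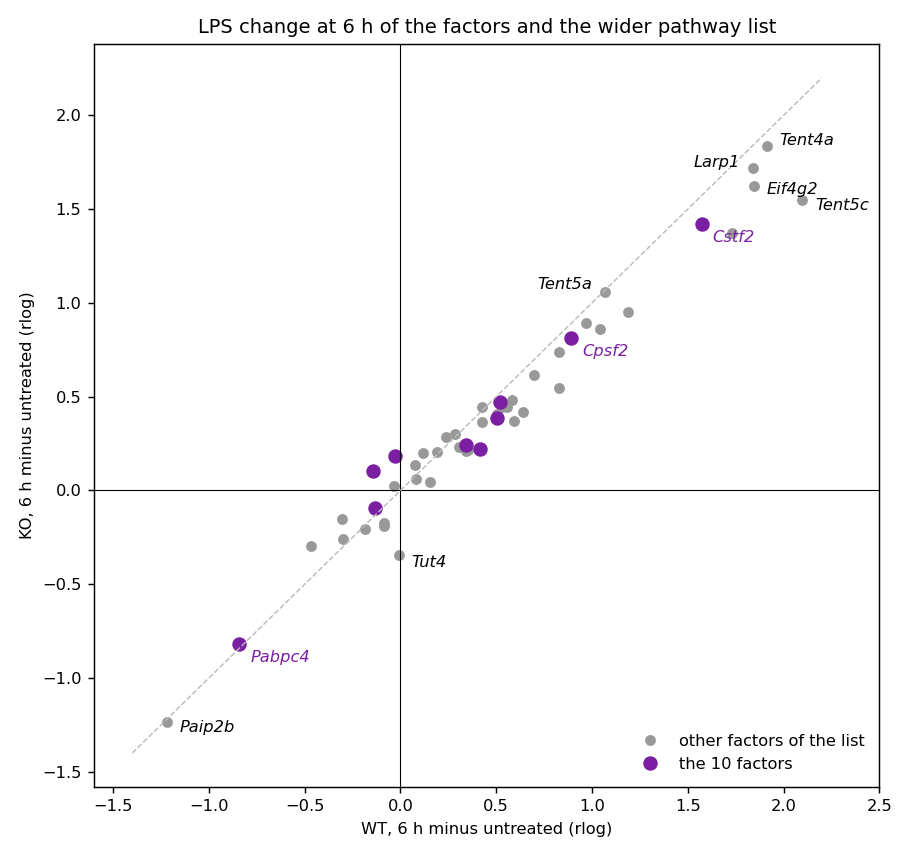
Difference in rlog between 6 h of LPS and untreated in WT (x axis) and KO (y axis) for the 10 factors (purple) and the 39 tested genes of the wider list (grey), with the line of equal change dashed. Cstf2 (1.57 and 1.42) lies with Tent4a, Larp1, Eif4g2 and Tent5c at the upper end, and Pabpc4 (−0.84 and −0.82) and Paip2b at the lower end.

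Between genotypes, 5 genes of the wider list were called at 1 or more times. Pabpc1l, a poly(A)-binding protein known from oocytes, was lower in KO in untreated cells (4.05 against 4.90), at 1 h, at 3 h and at 6 h, with differences of −0.87 to −0.65 (limma adjusted p = 0.00767 to 0.0366), and its difference at 9 h was −0.55 (adjusted p = 0.0724). In untreated cells the difference was −0.72 in batch 1 and −0.98 in batch 2. Its KO and WT values did not overlap at any of the 5 times, which held at each time for 10.5%, 15.7%, 13.6%, 20.2% and 16.9% of all tested genes. At 6 h Tent4b (0.17, adjusted p = 0.0267), Paip2 (0.13, adjusted p = 0.0362) and Larp4 (0.16, adjusted p = 0.0337) were higher in KO, and Tent5c was lower (−0.53, adjusted p = 0.0288), each with the same sign in both batches. Over 39 genes the calls were 1, 1, 1, 5 and 0 from untreated to 9 h, beside 1.31%, 1.91%, 3.68%, 16.3% and 7.91% of all tested genes. For interaction, 1 of the 39 genes was called, Eif4g2 at 9 h, where 1.76% of all tested genes were called. Eif4g2 had risen by 1.13 in KO and 1.44 in WT (limma adjusted p = 0.0139).

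Among the factors the group means of Cstf2 alone spanned 1 rlog unit or more (1.57), a wider span than in 77.2% of tested genes, while Pabpc4 spanned 0.999 and Cpsf2 0.890. The 3 genes whose rlog values were most like those of Cstf2 over the 40 libraries were Fam49a, Ppp2r2a and Sec24b, with a Pearson r of 0.98, 0.98 and 0.97 among 13103 genes. Among pairs of factors, Papola and Cpsf6 had an r of 0.85 and Pabpc1 and Papolg one of 0.81, and Pabpc4 and Cpsf6 had the lowest r, −0.91. These values describe libraries that share mice, times and the change of scale with level after LPS.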

How the data were processed

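RNA was poly(A)-selected from 40 BMDM libraries. The authors aligned reads to mm10 with STAR 2.3.0e, counted them with featureCounts and deposited log2-scale rlog values made by DESeq2, which were used as deposited. The strand setting of the counting is not given in the sources used here, and the depth per library is unknown from the values used, so no counting interval is given. The count test of the study could not be applied to rlog values.

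Differences were tested in R 4.3.3 by limma 3.58.1, with lmFit and a trended eBayes, on genes averaging log2 of 5 or more, with Benjamini-Hochberg adjustment over all tested genes and calls at an adjusted p under 0.05. Genotypes were compared at each time over 8 libraries, times within each genotype over 20 libraries, and interactions over 40 libraries. The main time and interaction fits held group means with no term for the mouse, so their p-values do not use the pairing by animal. The script was tested on simulated data. Alternatives were no filter, quantile normalization, batch as a covariate, a joint fit, the mouse as a block, and leaving out each mouse.

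Each mouse gave all 5 times, so libraries are paired by animal. Deviations from group means had a median r of 0.29 between libraries of 1 mouse (68 of 80 pairs over 0.1) and −0.09 between mice (36 of 240). The deviations of a group cancel out over its mice. The value between mice therefore follows in part from that within a mouse and is no separate comparison.

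All 10 factors were named. From the wider list, the genes called between genotypes and the 3 largest rises and falls in each genotype were named, and for factors whose group means span at least 1, the 3 most correlated genes. The factors and lists were chosen with earlier results of these data known. The comparison with genes of like level and the search for TGACG were chosen after the data were seen. Promoters were matched by symbol in RefSeq for 8 of 10 factors.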

Additional observations from a re-analysis of the deposited data

Results flagged for a closer look

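The change of Cstf2 from untreated to 9 h differed between genotypes by −0.36 (limma interaction, adjusted p = 0.0353). In 5 of 100 groups of 4 values, 1 mouse lay apart from the other 3 by a gap to its nearest neighbour, as a share of the range, above the critical value of Dixon for 4 values, which chance gives in about 1 in 20 groups. Pabpn1 in KO at 1 h had a gap of 0.942 of the range, with mouse 2 at 12.31 and the others at 12.18. Cstf2 in WT at 6 h had a gap of 0.925, with mouse 69 at 11.53 and the others from 11.72 to 11.74. Papolg at 9 h had a gap of 0.877 in WT, with mouse 69 at 7.70 and the others from 7.97 to 8.01, and of 0.84 in KO, with mouse 2 at 7.73 and the others from 8.11 to 8.18. Cpsf2 in KO at 3 h had a gap of 0.863, with mouse 3 at 11.54 and the others from 11.62 to 11.64.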

How the results depend on the processing

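Quantile normalization reversed 31 differences that were called with or without it, and no other setting reversed a called difference. The cause was not tested. Differences called in neither fit changed sign 27 times under quantile normalization and 82 times when a mouse was left out. Against untreated, Pabpc1 became −0.27, −0.30, −0.50 and −0.48 in WT and −0.20, −0.30, −0.61 and −0.47 in KO at 1, 3, 6 and 9 h. Between times Pabpc1 became −0.034 (3 against 1 h), −0.20 (6 against 3 h) and 0.018 (9 against 6 h) in WT and 0.14 (9 against 6 h) in KO. Pabpn1 became −0.41 and −0.38 in WT at 3 and 9 h, −0.24, −0.29, −0.39 and −0.33 in KO at 1, 3, 6 and 9 h, and −0.26 in WT and −0.054 in KO for 3 against 1 h. Papola became −0.25 and −0.042 in WT and −0.29 and −0.13 in KO at 3 and 6 h, Cpsf6 −0.25 in WT at 3 h and −0.11 and −0.25 in KO at 1 and 3 h, Cpsf2 −0.12 in WT and −0.10 in KO at 1 h, and Cpsf1 −0.20 in KO at 3 and at 9 h. Under this setting the number of factors called went from 1 to 4 at 1 h, 4 to 8 at 3 h and 5 to 8 at 9 h in WT, and from 2 to 6 at 1 h and 5 to 8 at 3 h in KO. Splits of higher to lower factors were then 0 to 4 at 1 h and 4 to 4 at 9 h in WT, and 1 to 5 and 2 to 4 in KO. The shares of all tested genes called under this setting are not given, so these counts and splits have no background beside them.

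With no filter the calls at 1 h were 2 in WT and 1 in KO, and with the replicate block 2 in WT. The genotype calls at 1 h were 2 in the joint fit and 4 with the mouse as replicate block. For the settings in this paragraph the shares of all tested genes called are not given, so the counts have no background beside them. Leaving out 1 mouse gave 0 to 2 genotype calls at 1 h, 0 to 1 at 3 h, 0 to 2 at 6 h and 1 to 2 at 9 h, 0 to 1 interaction calls at 9 h, 0 to 1 calls in WT and 1 to 3 in KO at 1 h, and 3 to 5 for 9 against 6 h in KO, where 6 were called with all mice. The replicate block changed the call of 7 differences, all to called: beside those of Cpsf1, Nudt21 and Pabpc1 given above, Papola in KO at 1 h (adjusted p = 0.0248), Cpsf6 in WT for 9 against 6 h (adjusted p = 0.0248), and Pabpc1 in KO for 3 against 1 h (adjusted p = 0.0134) and 9 against 6 h (adjusted p = 0.0191). Shrinkage of rlog values and 4 mice per group limit what small differences can be seen.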
